A study of Mus musculus with 38 samples.

Results

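The genes described here encode the proteins of the cytosolic ribosome, and the question was which of them carry a binding site of the heat shock factors HSF1 and HSF2 at their promoter, and how the signal over those sites compares between asynchronous and mitotic cells. Members were the protein-coding genes of the mouse whose symbol begins with Rpl or Rps and a digit, together with Rpsa, Rplp0, Rplp1 and Rplp2, without the ribosomal S6 kinases and Rps19bp1. There were 91 such genes among 21951 protein-coding genes. Of these, 43 encode proteins of the large subunit, 31 proteins of the small subunit and 3 proteins of the stalk, and 14 are paralogs or pseudogene-like copies such as Rps27l and Rpl7l1.

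CUT&Tag maps a protein on native chromatin by tethering the transposase Tn5 to an antibody, so that sequencing adapters are inserted beside the bound protein. It was performed for endogenous HSF1, HSF2 and SOX2 in wild type JM8 cells, which are embryonic stem cells of the mouse. It was also performed in Hsf2 knockout cells of the same line that expressed HaloTagged constructs. Full-length HSF2 (Halo-HSF2) was read with an anti-HSF2 antibody, and its HA-tagged form with an anti-HA antibody. The HaloTagged DNA-binding domain of HSF2 with its nuclear localization sequence (Halo-H2DBD) was read with anti-HA. The paper lists Halo-HSF2 and its HA-tagged form as separate constructs. The Halo-HSF2 signals by anti-HSF2 and by anti-HA thus differ in construct as well as in antibody. Each signal was measured in asynchronous (A) and in mitotic (M) cells, the latter collected by shake-off after nocodazole at 50 ng/ml for 6 h. The constructs are stably integrated transgenes under the EF1α promoter, which is not the promoter of Hsf2, in cells derived from a knockout clone, and the mitotic cells had all met nocodazole while the asynchronous cells had not. The values are spike-in scaled coverage, averaged by the authors over the 2 libraries of each condition and over the length of each site. In the methods the scaling sets the asynchronous sample to 1, whereas the scaling values that the study lists for the anti-HA libraries do not follow this, so each log2 M/A below holds for the tracks as deposited. The values carry no replicate error and no read totals, so no interval given here rests on depth, and no difference between A and M below carries a test.

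Ribosomal proteins are made in fixed proportion to one another and their genes are among the most actively transcribed in growing cells. Their mRNAs begin with a cytosine and a run of pyrimidines, the 5′ terminal oligopyrimidine (TOP) tract, through which translation follows growth signals. HSF1 and HSF2 recognise the heat shock element, a row of inverted GAA units, and are best known for the promoters of chaperone genes. SOX2 is a pluripotency factor of embryonic stem cells.

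A gene was counted as having a site if an interval of the factor lay over one of its transcript starts or within 1 kb of it. An HSF2 site was found at 17 of 91 ribosomal protein genes (18.7%, 95% Wilson interval 12.0 to 27.9%), against 8.32% of all protein-coding genes. An HSF1 site was found at 9 (9.89%, interval 5.29 to 17.7%), against 4.53% of all. The share with a site thus lay above that of all coding genes for both factors, and also for SOX2 (12.1% against 4.99%). The genes compared were not matched for transcription. The paper could not fully exclude that the Tn5 fusion prefers open chromatin, though the protocol was optimised to reduce this. Whether either bears on these shares was not tested. Rpl38, Rpl41 and Rps29 had a site of both HSF1 and HSF2, 6 genes had an HSF1 site alone of the pair, and 14 had an HSF2 site alone. The remaining 68 genes had neither. Beyond the window but within 5 kb of a start, the stalk gene Rplp1 had an HSF2 site at 2105 bases, and Rpl23a and Rpl3 had HSF1 sites at 4077 and 4902 bases. Of these only Rpl23a is among the 17 genes with an HSF2 site.

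By kind of member, HSF2 sites lay at 9 of 43 large-subunit genes (20.9%), at 7 of 31 small-subunit genes (22.6%) and at Rplp2 of the stalk, and at 0 of the 14 paralogs and pseudogene-like copies. HSF1 sites lay at 6 large-subunit genes and at 1 small-subunit gene, Rps29, and at 2 of the 14 paralogs. Chromosome 7, which holds 14 of the members, held 5 of the HSF2 sites, and chromosome 11, which holds 8 members, held 4. The shares of all coding genes on these chromosomes are not given, so these counts describe the members only.

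Other gene lists around the ribosome gave shares on both sides of these values. HSF2 sites lay at 7 of 78 mitochondrial ribosomal protein genes (8.97%), a share near that of all genes, with the highest asynchronous signals at Mrpl18 (12.3) and Mrps2 (7.54). They lay at 9 of 37 translation factor genes (24.3%), with the highest signals at Eif5a (8.32) and Eif5 (8.14). They lay at 7 of 20 other genes with TOP mRNAs (35.0%) and at 14 of 37 ribosome biogenesis genes (37.8%), both above the share of the ribosomal protein genes. Npm1, a nucleolar chaperone that is in both of these lists, had the highest signal in each (6.80), followed among the biogenesis genes by Imp4 (3.49). The intervals of these shares overlap that of the ribosomal protein genes. HSF1 sites lay at 5 mitochondrial ribosomal protein genes (6.41%), 5 translation factor genes (13.5%), 2 of the other TOP genes (10.0%) and 3 biogenesis genes (8.11%). Rack1 and Fau, which encode ribosomal proteins but whose symbols fall outside the rule, had a site of neither heat shock factor.

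**Figure D1:**
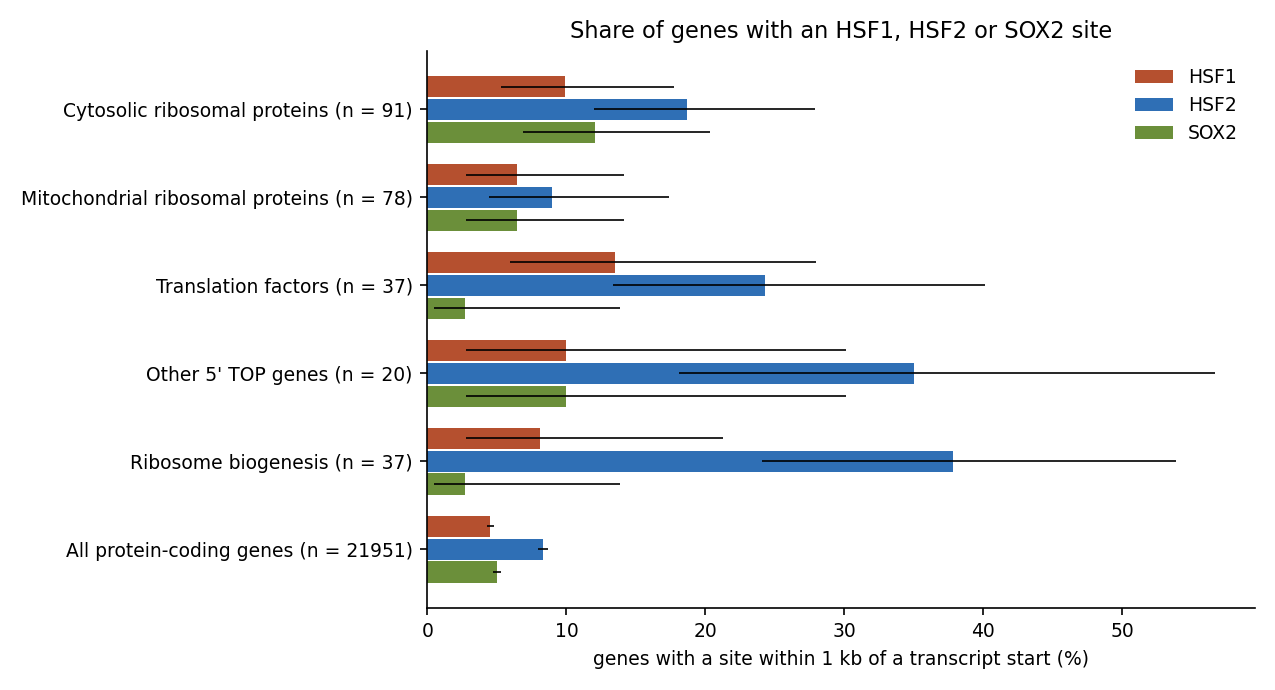
Share of genes (%, x axis) with an HSF1, HSF2 or SOX2 site within 1 kb of a transcript start, by gene list, with the number of genes in each list. Bars are shares and lines 95% Wilson intervals. HSF2 sites lie at 18.7% of cytosolic ribosomal protein genes, between 8.97% of mitochondrial ribosomal protein genes and 37.8% of ribosome biogenesis genes.

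All 9 HSF1 and all 17 HSF2 intervals lay over a transcript start of their gene. Of all sites at coding starts, 96.4% for HSF1 and 98.1% for HSF2 lay over a coding start. The HSF1 intervals were 1552 to 3291 bases wide, with a median of 2404 bases against 1938.5 over all HSF1 sites. In 8 of 9 the centre lay upstream of the principal start, and only the interval of Rpl41 was centred downstream (11.1%, against 43.6% of the pairs of a coding gene and an HSF1 site). The HSF2 intervals were 1347 to 9625 bases wide, with a median of 2826 bases against 2395 over all HSF2 sites, and 10 of 17 were centred downstream of the start, in the gene (58.8%, against 48.6% of the pairs of a coding gene and an HSF2 site). In 6 of 17 the HSF2 interval held at least 1 small nucleolar RNA gene, with Snord32a, Snord33 and Snord34 in that of Rpl13a. Of the 1556 HSF2 sites at coding starts 9 held such a gene (0.578%), these 6 among them. The ribosomal sites of HSF1 (0 of 9) and of SOX2 (0 of 11) held none. How many ribosomal protein genes without an HSF2 site hold such a gene was not counted, so this describes the intervals only. In 5 of 17 (29.4%, against 16.8% of the HSF2 sites at coding starts) the HSF2 interval also reached to within 1 kb of another coding start. These were Ttyh2 at Rpl38, Zc3h10 at Rpl41, Rdh10 at Rpl7, Ndufa7 at Rps28 and 2410015M20Rik at Rpl36. For HSF1 this held for Rpl41 and Zc3h10 alone, 1 of 9, against 18.1% of the HSF1 sites at coding starts. Signal in these intervals cannot be assigned to either gene.

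**Figure D2:**
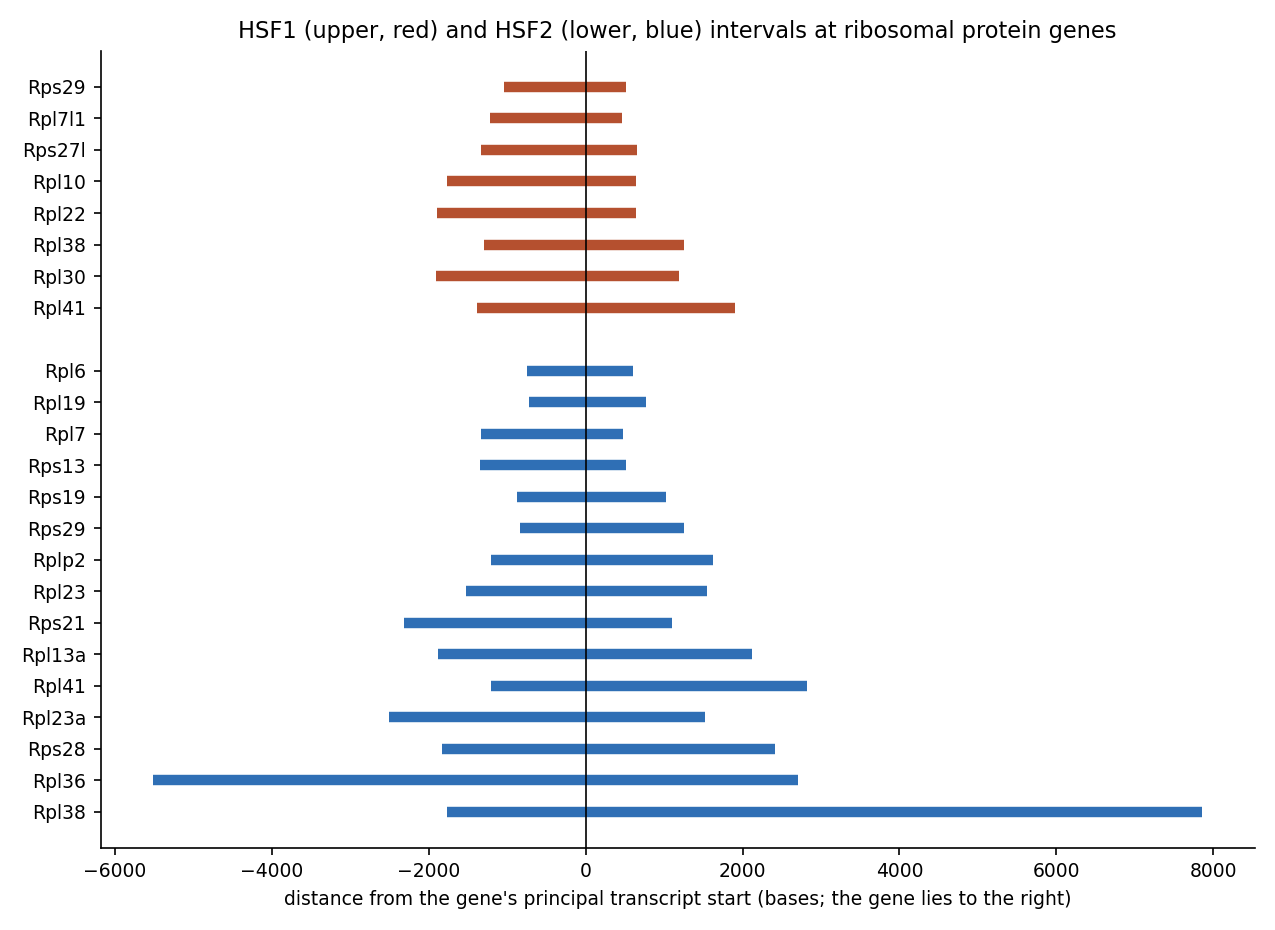
Extent of each HSF1 interval (upper, red) and HSF2 interval (lower, blue) at a ribosomal protein gene, as distance in bases from the principal transcript start, with the gene to the right. Each bar is 1 interval, ordered by width, for 8 of the 9 HSF1 and 15 of the 17 HSF2 intervals. All of them cover the start, and those of HSF2 at Rpl36 and Rpl38 are the widest.

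The sequences under these intervals were searched on both strands for the heat shock element, as GAANNTTCNNGAA or its reverse complement. It was present in 5 of 17 HSF2 intervals (29.4%, interval 13.3 to 53.1%), against 14.1% of all HSF2 sites and 9.55% of those at other coding starts. Counted per length, there were 0.0851 elements per kb in the HSF2 intervals of ribosomal protein genes and 0.0601 over all HSF2 sites. In the HSF1 intervals it was present in 1 of 9 (11.1%), against 16% of all HSF1 sites. The shorter form of 2 units, GAANNTTC, was found in 12 of 17 HSF2 intervals, against 70.3% of all HSF2 sites, and in 4 of 9 HSF1 intervals, against 67.5% of all HSF1 sites. The elements of 3 units are shown because they place the recognised sequence relative to each start. Each is printed in the direction of its gene (mm10), with the element in capitals and 10 bases on each side.
Rpl6: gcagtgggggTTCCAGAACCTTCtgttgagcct
Rps13: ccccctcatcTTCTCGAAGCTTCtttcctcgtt
Rpl13a: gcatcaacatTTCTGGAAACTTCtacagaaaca
Rpl38: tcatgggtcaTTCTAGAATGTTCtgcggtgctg
Rpl22: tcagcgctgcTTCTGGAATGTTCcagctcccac
The stretch of Rpl6 is chr5:121204814-121204846 on the plus strand, in an intron 349 bases after the start. That of Rps13 is chr7:116334637-116334669 on the minus strand, 458 bases upstream. That of Rpl13a is chr7:45127212-45127244 on the minus strand, in a coding exon 1533 bases after the start. That of Rpl38 is chr11:114671525-114671557 on the plus strand, in an intron 3017 bases after the start. These 4 lie in HSF2 intervals. That of Rpl22, in an HSF1 interval, is chr4:152324417-152324449 on the plus strand, 1434 bases upstream of the principal start. The element in the interval of Rpl36 lay 4390 bases upstream of its start. So none of the 5 elements under HSF2 lay within 250 bases of the principal start.

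Promoters, taken from RefSeq as 250 bases before to 50 after each annotated start (GRCm38.p6), were matched for 65 of the 91 genes and for 16522 protein-coding symbols in all. A gene was counted if any of its annotated starts had the match. The TOP tract, scored as a C at the annotated start followed by at least 4 pyrimidines, was present in 14 of 65 ribosomal protein genes (21.5%, interval 13.3 to 33.0%) and in 2.71% of all. Since RefSeq starts can miss the used start by a few bases, the same tract beginning anywhere within 20 bases of the start was also counted, an alternative chosen after seeing the data. It was found in 81.5% of the ribosomal protein genes and in 54.1% of all. Of the 11 matched genes with an HSF2 site, Rpl38, Rplp2 and Rps21 had the tract at a RefSeq start itself. At Rpl38 and Rplp2 this RefSeq start lies downstream of the principal start used for the intervals. Their starts are shown with 40 bases before and 20 after, and the tract in capitals.
Rpl38: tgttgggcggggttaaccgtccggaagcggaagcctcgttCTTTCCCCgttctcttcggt
Rplp2: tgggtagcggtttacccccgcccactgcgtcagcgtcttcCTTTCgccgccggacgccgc
Rps21: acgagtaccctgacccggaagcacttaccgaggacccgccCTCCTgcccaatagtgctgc
They are chr11:114668540-114668599, chr7:141447611-141447670 and chr2:180257339-180257398, all on the plus strand.

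The core of the ETS family site, CCGGAAG on either strand, was present in 26 of 65 ribosomal protein promoters (40%, interval 29.0 to 52.1%) and in 13.4% of all promoters. Among the 11 matched genes with an HSF2 site it was present in 6, and among the 50 matched genes without either heat shock factor in 19. These 6 cores are shown in capitals with 15 bases on each side, in the direction of the gene.
Rpl6: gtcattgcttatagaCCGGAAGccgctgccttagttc
Rpl19: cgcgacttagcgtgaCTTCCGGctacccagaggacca
Rpl38: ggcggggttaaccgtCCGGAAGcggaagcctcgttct
Rpl41: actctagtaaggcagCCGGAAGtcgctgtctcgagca
Rplp2: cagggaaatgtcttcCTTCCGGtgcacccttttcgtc
Rps21: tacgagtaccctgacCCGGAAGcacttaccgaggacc
In the order printed they are chr5:121204498-121204534, chr11:98026656-98026692, chr11:114668545-114668581, chr10:128549203-128549239 (minus strand, the others plus), chr7:141447528-141447564 and chr2:180257338-180257374. Measured from the nearest RefSeq start, the centre of the core lay 15 bases after it in Rpl6 and 17 to 105 bases before it in the others. These distances do not refer to the principal start used for the intervals. At Rpl38, Rpl41 and Rplp2 the core lay downstream of the principal start. The heat shock element of 3 units was found in the promoters of Rpl22 and Rps18 alone (3.08% of 65, against 0.575% of all), and in 0 of the 11 matched genes with an HSF2 site. Rps18 had no HSF1 or HSF2 site. The form of 2 units was in 10.8% of ribosomal protein promoters and 15.8% of all. The YY1 core AAGATGG was in 15.4% against 7.26%, the NRF1 core GCATGCGC in 4.62% against 4.11%, the SP1 core GGGCGG in 61.5% against 51.0%, and TATAAA in 10.8% against 14.3%. The median GC content was 57% in both sets. A match describes these letters and is no sign that the factor binds.

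**Figure D3:**
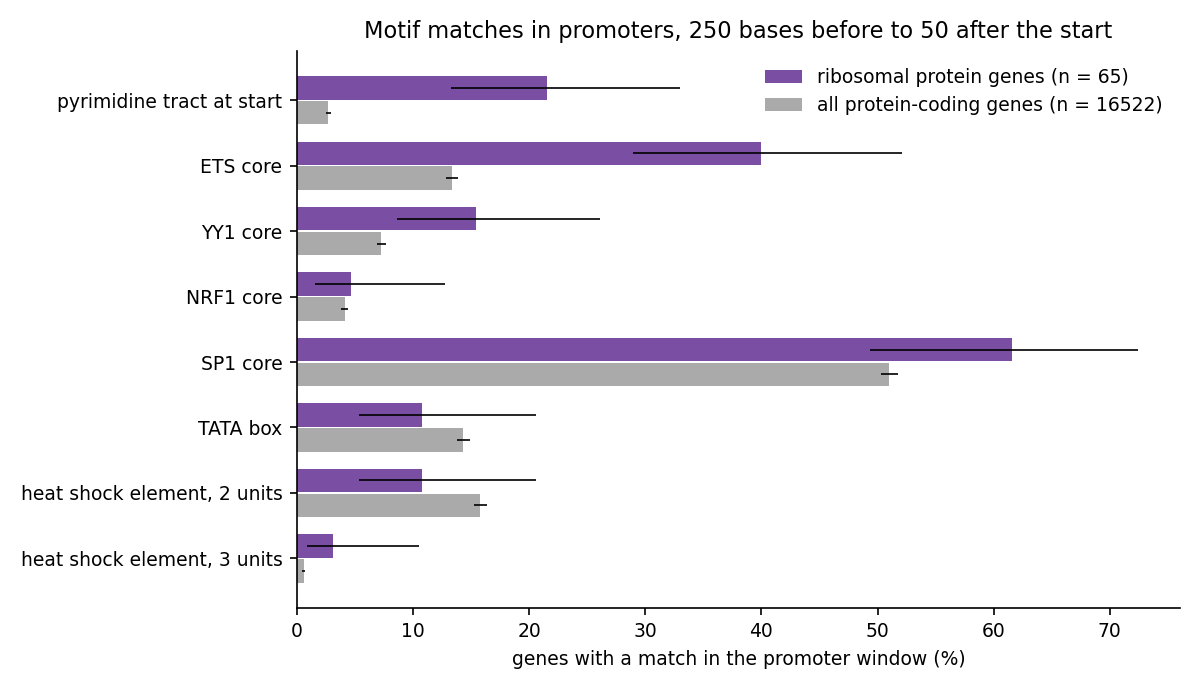
Share of genes (%, x axis) with each motif in the window from 250 bases before to 50 after an annotated start, for 65 ribosomal protein genes and 16522 protein-coding genes. Bars are shares and lines 95% Wilson intervals. The tract at the start is in 21.5% against 2.71% and the ETS core in 40% against 13.4%.

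The HSF1 signal over the 9 sites ranged from 2.42 to 13.4 in asynchronous cells, with a median of 5.52, against 6.21 over all 1726 HSF1 sites. In mitotic cells it ranged from 1.82 to 9.10, with a median of 3.71 against 4.07. At HSF1 sites of other coding starts the medians were higher, 7.81 in A and 5.07 in M. In the mean of both phases 4 of 9 ribosomal sites (44.4%) were at or above the list's median signal, against 66.9% of the sites at coding starts. HSF1 sites at or above that median were present at 4.40% of ribosomal protein genes and 3.10% of all coding genes. The median log2 M/A was -0.69 (95% order-statistic interval over sites -0.92 to 0.09), against -0.62 over all sites, and -0.07 when centred on them. The signal was higher in M at 2 of the 9, Rpl22 and Rpl38, while 8.11% of all HSF1 sites were higher in M. Relative to the median of all sites, 4 of 9 lay above and 5 below. The authors' site list carries another pair of HSF1 means, in which all 9 sites were lower in M and the median log2 M/A was -2.84. For that pair no value over all HSF1 sites is given, so these have no background.

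Rps27l, a paralog of Rps27 that is known as a target of p53, had the strongest HSF1 site in A with the means used here. The site lies at chr9:66944749-66946742, with a signal of 13.4 in A and 8.31 in M. The site of Rps29, a zinc-binding protein of the small subunit, had 11.3 in A and 9.10 in M (chr12:69158671-69160222). With these means this was the highest mitotic value of the 9. In M it was above 88.4% of all HSF1 sites. With the other pair of means Rps29 had 13.4 in A and 1.41 in M, against 11.1 and 2.37 at Rps27l, so these ranks turned. Rpl41, which encodes the shortest ribosomal protein, had 8.06 and 4.70 (chr10:128547404-128550694, shared with Zc3h10). Rpl7l1, a paralog of Rpl7, had 7.85 and 5.79 (chr17:46782196-46783880). Both paralogs with an HSF1 site were thus among the 4 stronger sites.

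The site of Rpl10, whose protein joins the large subunit late in its maturation, lay just below the median of the list in asynchronous cells, with 5.46 in A and 2.88 in M (chrX:74269047-74271450). Rpl30 had 3.89 and 1.82 (chr15:34442447-34445548), the lowest log2 M/A of the 9 at -1.10. Rpl38, which is known for the translation of Hox mRNAs, had 3.43 in A and 3.71 in M (chr11:114667229-114669776). Rpl22 had 2.42 and 2.58 (chr4:152323974-152326510). Their log2 M/A were 0.11 and 0.09, but -2.66 and -3.37 with the other pair of HSF1 means, carried by the authors' site list. Which pair is the final one is not given in the sources used here.

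The endogenous HSF2 signal over the 17 sites ranged from 0.866 to 11.3 in A, with a median of 3.33 against 4.14 over all 2135 HSF2 sites. In M it ranged from 2.14 to 12.8, with a median of 4.68 against 5.85. The medians at other coding starts were 3.80 and 5.71. In the mean of both phases 8 of the 17 sites fell in the lowest quartile of the list and 1, Rpl6, in the highest. HSF2 sites at or above the list's median signal were present at 5 of 91 ribosomal protein genes (5.49%) and 3.80% of all coding genes, so the gap between the shares of genes was narrower for the stronger sites. These made up 29.4% of the ribosomal sites and 45.0% of the sites at coding starts. The signal was higher in M at 12 of 17, against 72.3% of all HSF2 sites. The median log2 M/A was 0.36 (interval -0.07 to 0.60), against 0.49 over all sites and 0.63 at other coding starts, and it turned to -0.13 when centred on all sites. Without the 5 sites shared with another coding gene it was 0.49, the same as that of all sites. Relative to the median of all sites, 7 of 17 lay above and 10 below.

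Rpl6, which encodes a large-subunit protein and holds an element in its intron, had the highest HSF2 signal in both phases, 11.3 in A and 12.8 in M (chr5:121203738-121205084). It was above 86.3% of all HSF2 sites in A. Rpl38, also among the 3 strongest sites in asynchronous cells, had 5.24 and 4.87 (chr11:114666759-114676383, shared with Ttyh2). The log2 M/A of Rpl6 and Rpl38 were 0.19 and -0.10, both below the median of the list.

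The highest log2 M/A were found at Rps21, Rpl23 and Rplp2. Rps21, a small-subunit protein, had 2.10 in A and 9.25 in M (chr2:180255064-180258475), a log2 M/A of 2.14. In A it was above 17.8% of the HSF2 sites and in M above 76.6%. Rpl23, whose protein also binds Mdm2, had 0.866 and 2.23 (chr11:97780892-97783967), and Rplp2, an acidic protein of the stalk, had 3.18 and 7.83 (chr7:141446168-141448993). Their log2 M/A were 1.36 and 1.30. Together with Rpl41 at 1.29, 4 of 17 sites (23.5%) had a log2 M/A of at least 1, against 30.1% of all HSF2 sites. Rpl23 and Rpl41 were nonetheless among the weaker HSF2 sites in both phases.

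The signal was lower in M at 5 of the 17 sites. Rpl36, among the 3 with the lowest log2 M/A, had -0.12, from 3.33 in A and 3.07 in M (chr17:56607905-56616117, shared with 2410015M20Rik). A log2 M/A of -1 or less was found at 0 of 17 ribosomal sites and at 7.26% of all HSF2 sites.

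At the 3 genes with a site of both factors, the HSF1 and HSF2 intervals shared 1349 bases at Rps29, 2548 at Rpl38 and 3102 at Rpl41. The ratios of the factors differed there in sign. At Rpl41 HSF1 had a log2 M/A of -0.78 and HSF2 of 1.29. At Rps29 HSF1 had -0.31 and HSF2 0.36. At Rpl38 the order was the other way, 0.11 for HSF1 and -0.10 for HSF2, both close to 0, and with the other pair of HSF1 means the value of HSF1 there was -2.66. The ratios over all sites, -0.62 and 0.49, also differ in sign between the factors. Relative to them, Rps29 and Rpl38 lay above the median of HSF1 and below that of HSF2 with the means used here. Rpl41 lay the other way, below the median of HSF1 and above that of HSF2.

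**Figure D4:**
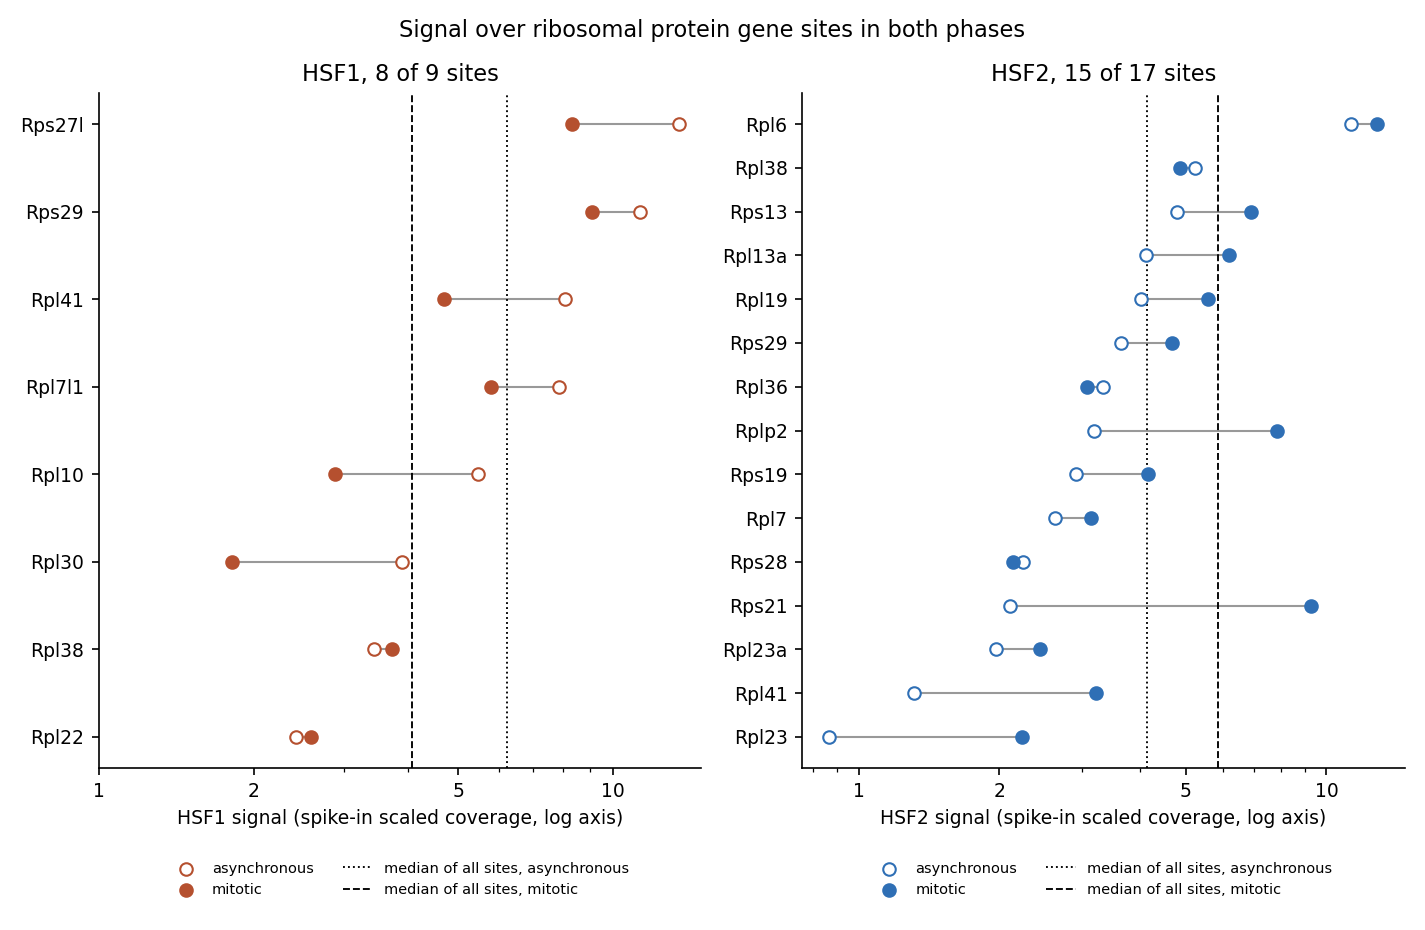
Signal (spike-in scaled coverage, log axis) at each ribosomal protein gene site in asynchronous (open points) and mitotic cells (filled points), for 8 of the 9 HSF1 and 15 of the 17 HSF2 sites. Vertical lines are the medians of all sites of each factor. HSF1 is lower in mitotic cells at all but Rpl22 and Rpl38 with these means (at all 9 with the other pair), and HSF2 is higher at 12 of 17.

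The constructs in Hsf2 knockout cells were read over the same 17 HSF2 sites. Halo-HSF2 read with anti-HSF2 had a median of 1.32 in A and 1.92 in M, against 1.58 and 2.44 over all HSF2 sites. It was higher in M at 15 of 17, against 79.7% of all sites. The median log2 M/A was 0.64 (interval 0.23 to 1.20), the same as the 0.64 of all sites, and hence 0.00 when centred on them. It was 0.75 without the 5 shared sites. Rpl23 (2.36) and Rps29 (2.27) were among the 3 highest asynchronous signals. The highest log2 M/A were at Rpl13a (1.67, from 0.909 in A and 2.89 in M), Rpl41 (1.37) and Rpl19 (1.29). The lowest were at Rps29 (-0.32) and Rpl36 (-0.15). Rps29 and Rpl36 were the sites that were lower in M.

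Halo-HSF2 read with anti-HA had a median of 1.68 in A and 1.85 in M, against 1.36 and 2.02 over all sites. The median log2 M/A was 0.06 (interval -0.07 to 0.40), against 0.57 over all sites (interval 0.53 to 0.59) and 0.57 at other coding starts, and it turned to -0.51 when centred on all sites. It was 0.17 without the 5 shared sites. The signal was higher in M at 11 of 17, against 86.3% of all sites, and 16 of 17 lay below the median ratio of the list. Other lists also lay below it, with medians of 0.22 at the 7 sites of mitochondrial ribosomal protein genes (6 below the list's median) and 0.32 at the 9 sites of translation factor genes (7 below). The medians were 0.54 for both the other TOP genes and the biogenesis genes, and the differences between lists were not tested. Stronger sites of the list had lower ratios, with a median of 0.69 in the lowest quartile of signal and 0.40 in the highest. Of the ribosomal sites, 4, 3, 7 and 3 lay in these quartiles from the lowest to the highest. Whether signal strength bears on their ratios was not tested. The highest asynchronous signal was at Rps19 (3.70), above 92.0% of all sites, and Rps29 (2.54) was also among the 3 highest. The highest log2 M/A were at Rpl7 (0.77, the site above the list's median, shared with Rdh10), Rpl23 (0.56) and Rpl19 (0.47). The lowest were at Rps13 (-0.42), Rpl41 (-0.20) and Rplp2 (-0.08).

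Halo-H2DBD, which lacks the heptad repeats and the regulatory and transactivation domains of HSF2, was lower in M at 11 of the 17 sites and higher at 6, against 58.6% higher over all sites. Its median was 1.86 in A and 1.58 in M, against 1.64 and 1.82 over all sites. The median log2 M/A was -0.15 (interval -0.44 to 0.22) against 0.10 over all sites. It was -0.24 when centred on them, and 0.01 without the 5 sites shared with another coding gene. The signal was lower in M at 6 of 7 sites of mitochondrial ribosomal protein genes (median -0.31) and at 5 of 9 of translation factor genes (median -0.01), but at 3 of 7 of the other TOP genes (median 0.11) and 7 of 14 of biogenesis genes (median -0.06). Rps19 (3.60, with 4.88 in M) and Rpl13a (2.59) were among the 3 highest asynchronous signals. The highest log2 M/A were at Rps29 (0.74), Rps19 (0.44) and Rpl23 (0.36), and Rps13 (-0.65) and Rpl38 (-0.54) were among the 3 lowest. Rps19 was thus among the 3 strongest ribosomal sites of both anti-HA signals in asynchronous cells.

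In asynchronous cells, Spearman's rho over the 17 sites was -0.01 between endogenous HSF2 and either signal of Halo-HSF2, and 0.33 with Halo-H2DBD. It was 0.79 between the anti-HA signals of Halo-HSF2 and Halo-H2DBD, which share an antibody and a parent line. Over all 2135 sites these values were 0.17 and 0.08 for Halo-HSF2 by anti-HSF2 and by anti-HA, 0.07 for Halo-H2DBD and 0.88 between the anti-HA signals. In mitotic cells, endogenous HSF2 gave 0.05 with Halo-HSF2 by anti-HSF2, -0.02 by anti-HA and -0.01 with Halo-H2DBD over the 17 sites, against 0.36, 0.34 and 0.34 over all sites, and the anti-HA signals gave 0.80 against 0.85. In A, Rpl6, the strongest site of endogenous HSF2, was above 18.7% of the list in Halo-HSF2 by anti-HSF2, 21.3% by anti-HA and 31.0% in Halo-H2DBD. In M these values were 12.4%, 5.57% and 36.4%. Endogenous HSF2 had ratios of the same sign as Halo-HSF2 by anti-HSF2 at 12 of 17 genes (70.6%, against 71.8% of all sites), as Halo-H2DBD at 11 (64.7% against 59.3%) and as Halo-HSF2 by anti-HA at 6 (35.3% against 68.3%). Rpl23, Rps19 and Rps21 were higher in M in all 4 signals (17.6%, against 35.6% of all HSF2 sites with a ratio in each), and 0 of 17 were lower in M in all 4, against 1.42%. These signs refer to the deposited scaling.

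**Figure D5:**
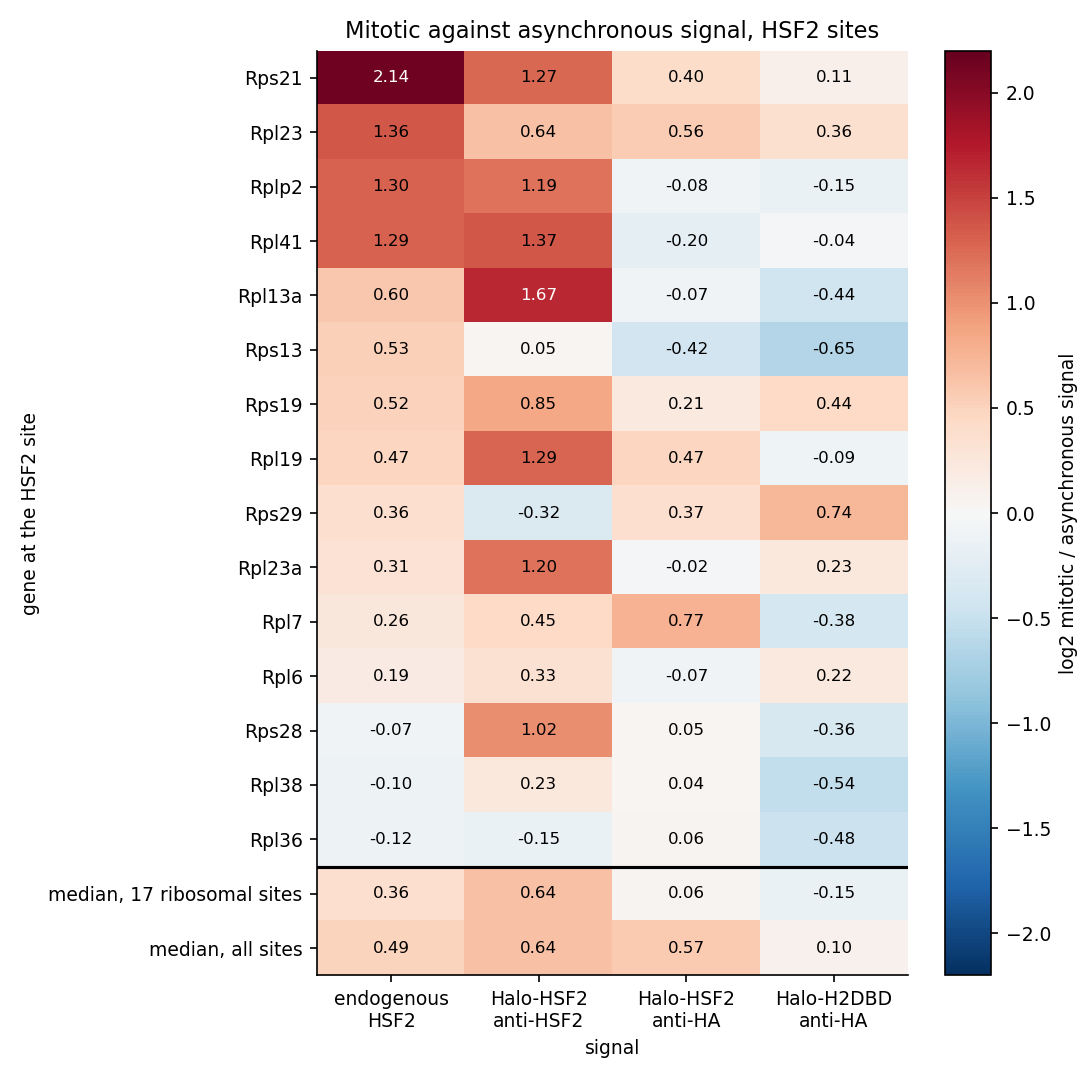
Log2 of mitotic over asynchronous signal (colour and printed value) at 15 of the 17 HSF2 sites of ribosomal protein genes, for endogenous HSF2 and for the constructs in Hsf2 knockout cells, with the medians of the 17 sites and of all HSF2 sites in the lower rows. For Halo-HSF2 by anti-HA the ribosomal median is 0.06 and that of all sites 0.57, while for anti-HSF2 both are 0.64.

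SOX2, which took no part in the choice of genes, had a site within 1 kb of a start at 11 of 91 ribosomal protein genes (12.1%, interval 6.89 to 20.4%), against 4.99% of all coding genes. They included Rpl18, Rpl22, Rpl27, Rpl3, Rps7, Rps9, Rps18, Rps19 and Rps26. Of the 11, 7 encode small-subunit proteins and 5 are on chromosome 7, for which the share of all coding genes is not given. These genes are named here after their values were seen. The intervals had a median width of 149 bases, against 224 over all SOX2 sites, and 6 of 11 covered a start of their gene. Any coding start was covered by 7 (63.6%), against 24.9% of the SOX2 sites at coding starts. In 2 cases, Rpl18 with Sphk2 and Rps18 with Vps52, another coding start lay within 1 kb (18.2%, against 8.87%). The median SOX2 signal was 20.7 in A and 17.9 in M, against 8.74 and 10.7 over all 15081 sites, and 12.5 and 15.9 at other coding starts. At or above the list's median were 10 of the 11 (90.9%), against 63.6% of the sites at coding starts. The highest signals were 59.3 in A at Rpl27 and 53.4 in M at Rps26. Log2 M/A was above 0 at 6 (54.5%) and below 0 at 5, against 63.4% above 0 over all sites with a ratio and 66.1% at other coding starts. It ran from 1.97 at Rpl18 to -1.62 at Rps18, with a median of 0.53 (interval -0.81 to 1.04) against 0.34 over all sites, and 0.20 when centred on them. Rpl22 had a SOX2 and an HSF1 site, 2 genes, Rps19 among them, a SOX2 and an HSF2 site, and 60 of the 91 genes had a site of none of the 3 factors.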

How the data were processed

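The deposited values are coverage signal. The authors had aligned reads by Bowtie2 to mm10, scaled coverage to reads of the Drosophila spike-in and averaged the replicates. They called HSF1 and HSF2 sites in both phases using SEACR, with IgG as the control, and took SOX2 sites from published work. From 38 libraries in 19 conditions, 12 conditions were used. The rest have no column used here. From the HSF2 sites, 6 repeated intervals were dropped. Sites were joined to transcript starts of GENCODE M21 basic, log2 M/A was taken without a pseudocount, and shares and medians were given beside those of all genes or sites, with Wilson and order-statistic 95% intervals that describe the averaged tracks only. Principal starts follow the APPRIS label. Levels were compared only within a signal. Named were every member with an HSF1 site, and per signal over HSF2 sites the 3 highest in A, the 3 highest and the 3 lowest log2 M/A. Some genes that this rule names are not reported here, though counts and medians hold them. Members, lists and rules were chosen with earlier results of these data known. The alternatives concerned the window, starts, members, pseudocounts, filters, scaling, columns and promoter window. The calculations were tested on simulated data. Python 3.11.15, numpy 2.4.6, pandas 2.3.3, scipy 1.17.1, pysam 0.24.0 and matplotlib 3.10.9 were used.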

Additional observations from a re-analysis of the deposited data

How the results depend on the processing

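Of 79 values recomputed under alternatives for 17 results, 66 stayed within the interval of the main value, 65 of them with the same sign. Some of these could not move. All HSF1 and HSF2 sites of these genes cover a start, so counting only sites over the start repeats their main values. No paralog had an HSF2 or SOX2 site, so leaving paralogs out repeats the medians over those sites. The count is therefore no measure of robustness. The intervals are wide, and some medians moved within them. The ratio of the mean signals gave a log2 M/A of 0.14 for SOX2 (main 0.53) and 0.18 for Halo-HSF2 by anti-HA (main 0.06). A pseudocount of 1 gave -0.08 for Halo-H2DBD (main -0.15). Counting only sites at or above the list's median signal gave 4.40% of ribosomal protein genes for HSF1 and 5.49% for HSF2, since fewer sites were counted, and only sites over the start gave 6.59% for SOX2. The means carried by the HSF1 site list gave a median log2 M/A of -2.84; the cause was not tested. Centring on all sites gave -0.13 for HSF2, 0.00 (0.00388) for Halo-HSF2 by anti-HSF2 and -0.51 by anti-HA, and centring on the weakest quartile gave -0.34, 0.12 and -0.64, as the list's own medians are subtracted. In the same order of centring, HSF1 gave -0.07 and -0.10, SOX2 0.20 and 0.24, and Halo-H2DBD -0.24 and -0.15, within their intervals. Halo-H2DBD gave 0.01 (0.00673) without sites shared with another coding start, where fewer sites remain. With 100 bases before the start, the heat shock element of 2 units was in 4.62% and the SP1 core in 46.2% of promoters. The tract within 20 bases of the start, chosen after seeing the data, was in 81.5%. The means of the HSF2 site list, also added then, left the HSF2 median within its interval. No paired analysis was possible because the columns are the authors' averages over replicates, and leaving out a replicate was not run for the same reason. The values carry no read totals, so the precision of weak sites is not given.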
